A study of Mus musculus with 2 samples.

Results

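Metalloproteases and their tissue inhibitors were followed between a control and a cystic mouse kidney. The members were chosen by name: every probe set of the array annotated to a single gene whose symbol is that of a matrix metalloproteinase (Mmp), an ADAM, an ADAMTS or a TIMP. This rule gave 116 of 45037 probe sets and 65 of 18193 named genes, of which 18 were Mmp, 28 Adam, 15 Adamts and 4 Timp genes. The rule itself used no measured value, but the members and the lists of related genes were chosen with earlier results of these data known. Their shares past 2-fold therefore describe these arrays and are no test of an excess. Another 5 probe sets that name a member together with a further gene were left out.

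The study compared kidney RNA of mice that all carried the transgene inv-deltaC::GFP, which encodes truncated inversin, lacking the C-terminus, tagged with green fluorescent protein. The control was +/+ at Invs, and the cystic kidney was inv/inv, homozygous for the mutation that serves as a mouse model of nephronophthisis type 2. Each group was 1 Affymetrix array of biotin-labelled total RNA, with an age of 4 weeks in the series design and of 28 days in the labels of the cystic array. The series design mentions 2 kidneys but leaves unclear how many animals stand behind each array. The promoter of the transgene is not given in the sources used here. With 1 array per group there is no replicate error and no test, and the number of arrays limits the precision. A difference is therefore described by its size, and "rose" and "fell" stand for at least 2-fold.

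The values are linear MAS5 signals per probe set. The median signal of an array served as its floor, with a value of 55.4 (control) and 61.9 (cystic). Probe sets under both floors count as not measured. With a signal under 1 floor, that floor takes its place and the ratio is a bound. A gene takes its brightest probe set, and levels of different genes are not compared. Over 12015 genes with a measured value, 848 rose and 454 fell, and the median log2 ratio was 0.09. The higher genes were 65.1% of those past 2-fold, and 47.5% after centring both arrays on their median signals, which shifted every log2 ratio by -0.16. All 10 proximal tubule and all 8 distal nephron markers were above the floor on both arrays. The cystic array is labelled female, but Xist, the transcript of the inactive X chromosome, had a signal of 57.4 there and 387 in the control. The Y-linked genes Eif2s3y (132 and 142), Kdm5d (152 and 194) and Uty (206 and 198) were above the floor on both arrays, so the array labelled female goes against its label. The control array has no label for sex, and on it Xist and the Y-linked genes were both above the floor. The arrays thus differ in Xist as well as in the genotype at Invs. Each result below rests on both arrays, and a part of sex in any ratio cannot be told apart from that of genotype.

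Metalloproteases of these families are zinc enzymes. MMPs are secreted or membrane-anchored enzymes made as inactive precursors, and together they cut collagens, proteoglycans and other matrix proteins. ADAMs are membrane proteins, some of which release the outer part of other membrane proteins, and ADAMTS enzymes are secreted and cut proteoglycans, procollagens and other matrix proteins. TIMPs bind the active site of these enzymes and block it. In kidney, the balance of proteases and inhibitors is studied as a part of matrix turnover during fibrosis and cyst growth.

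Among the members, 33 of 65 genes were measured, 23 of them above the floor on both arrays and 10 as bounds. Of the 33, 9 rose in the cystic kidney (27.3%), against 7.06% of all measured genes. None fell, against 3.78% of all measured genes, a share too small to tell from none among 33 genes. A fall could be called only where the control signal was at least 2-fold above the cystic floor. Many measured members, such as Mmp9 (92.9) and Mmp24 (72.7), were under that limit and could not be called lower. With no floor and a pseudocount of 16, no member was at least 2-fold lower either. The 9 genes that rose were the inhibitors Timp1 and Timp2, the proteases Mmp14 and Mmp2, the secreted proteases Adamts16, Adamts1, Adamts12 and Adamts4, and the membrane protease Adam19. Among them, Timp1, Adamts12 and Adamts4 were under the control floor and count as measured only through the array where they are high. Over the 23 members above both floors the median log2 ratio was 0.50, against 0.08 over all genes above both floors. The median log2 ratio of the measured members was 0.46, and 0.30 with median centring, where the median of all genes was -0.07. Their log2 ratios ran from -0.65 (Adamts15) to a bound of 3.34 (Timp1). The other 32 genes were under the floor on both arrays, over 45 probe sets, and their 2-fold differences could not be read.

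**Figure D1:**
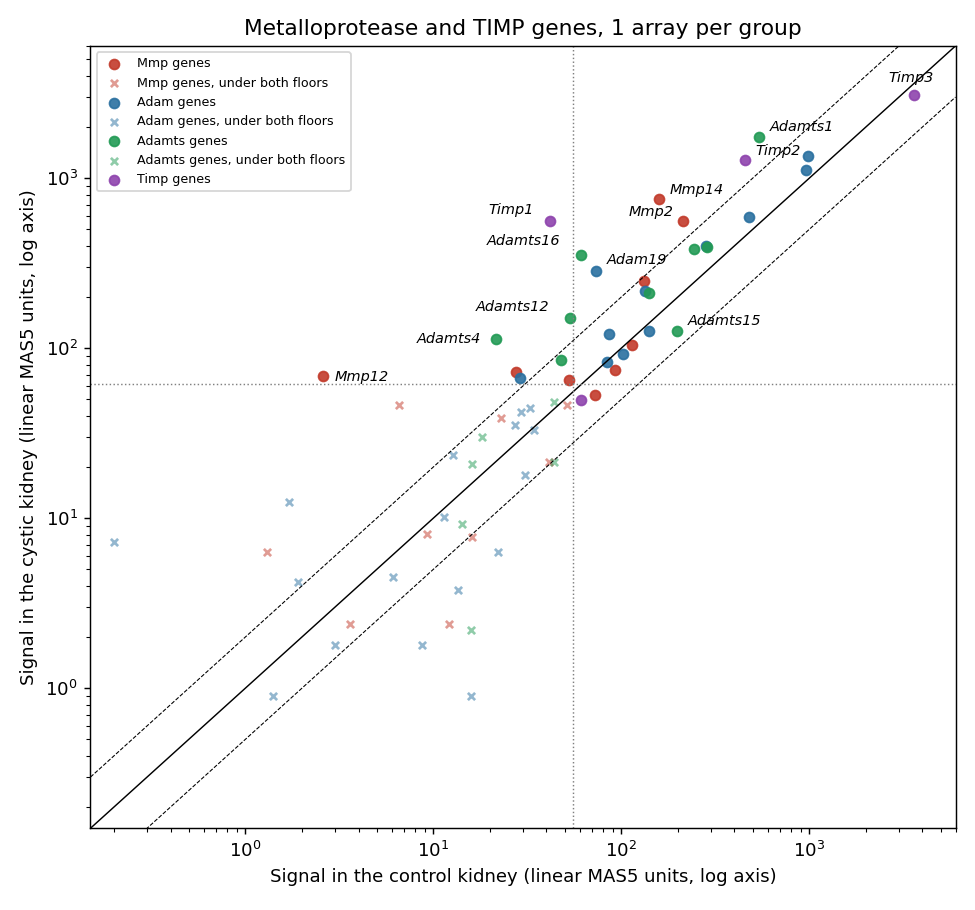
Signal of each of the 65 member genes in the control (x axis) and the cystic kidney (y axis), in linear MAS5 units on log axes, 1 point per gene at its brightest probe set. Dotted lines are the floors (55.4 and 61.9), the solid line is equal signal and the dashed lines are 2-fold; 9 genes lie on or above the upper dashed line and above the cystic floor after the control signal is raised to its floor, and no measured gene lies below the lower one.

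The 4 inhibitors went different ways. Timp1, a secreted inhibitor of most MMPs, went from 41.6 on the control array to 560.4 on the cystic array. It was thus under the control floor and at least 10.1-fold higher with cysts, the largest log2 ratio among the members, and it was read by 1 probe set. Timp2, an inhibitor that also takes part in the activation of pro-MMP2 on the cell surface, went from 453 to 1274, 2.81-fold higher. Its 5 measured probe sets gave cystic over control ratios between 2.66 and 3.17, so each of them was past 2-fold. Timp3, an inhibitor that is bound to the matrix and also blocks ADAM17 and aggrecanases, had signals of 3591 and 3094. All 4 probe sets of Timp3 were lower in the cystic kidney, with ratios between 0.753 and 0.914, and none reached 2-fold. Timp4, best known from the heart, had 60.8 and 49.8, close to the floors, and no direction is read from it. Timp1 and Timp2 therefore stood apart from Timp3 and Timp4 on these arrays.

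In the mouse genome Timp1, Timp3 and Timp4 lie within the spans of the synapsin genes Syn1, Syn3 and Syn2, and Timp2 lies within no other protein-coding gene. Syn1 had signals of 101 and 91, a log2 ratio of -0.15, beside the rise of Timp1. Syn3 was above the floor in the control kidney alone (104 and 48.5), and Syn2 likewise (59.1 and 30.7). The synapsin around Timp1 was therefore not past 2-fold.

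**Figure D2:**
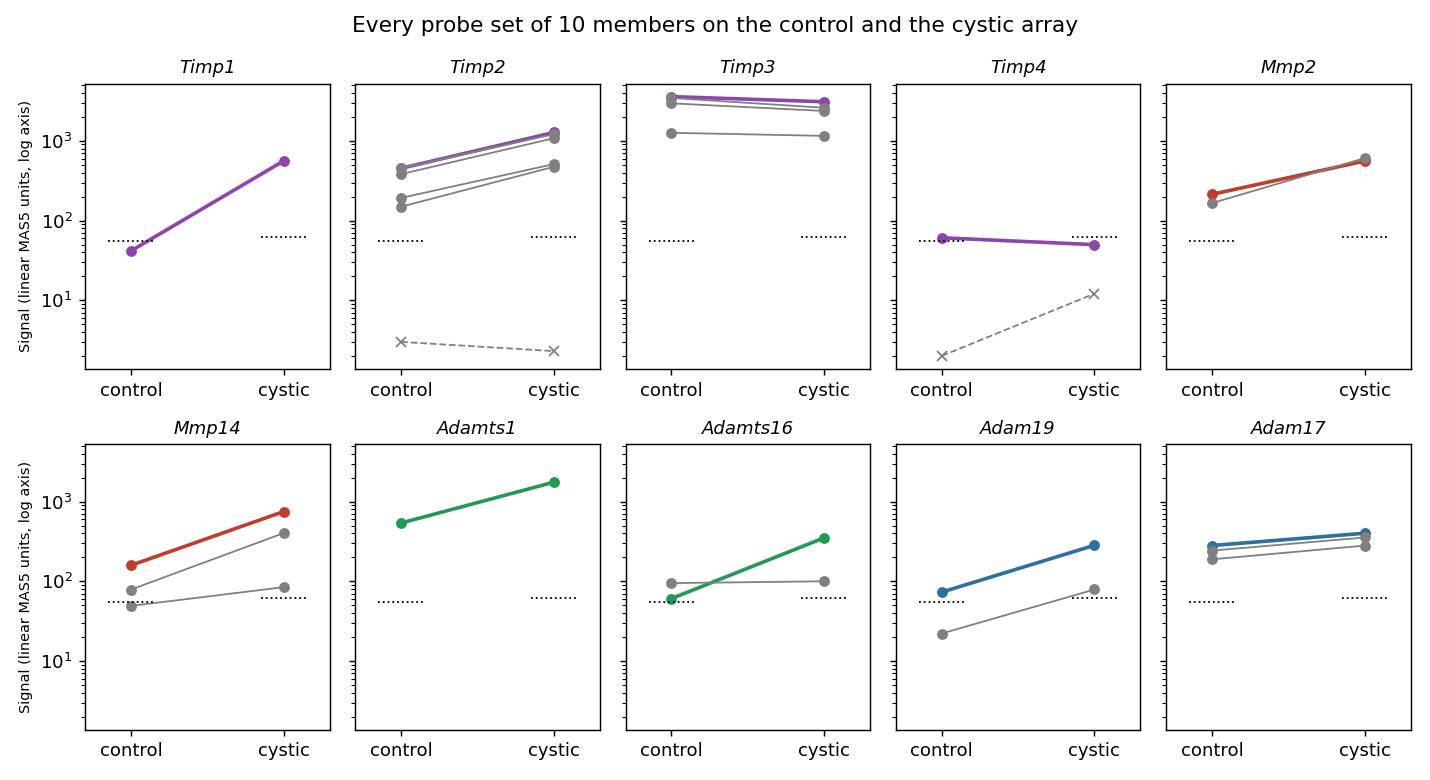
Signal (linear MAS5 units, log axis) of every probe set of 10 members on the control and the cystic array; the coloured line is the brightest probe set, grey lines are the others, a dashed line with crosses is a probe set under both floors, and short dotted lines are the floors. The 5 measured Timp2 lines rise together between 2.66-fold and 3.17-fold, the 4 Timp3 lines go slightly down, and the Adamts16 lines part.

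Among the MMPs, 2 of 9 measured genes rose (22.2%, against 7.06% of all measured genes) and none fell. Mmp14, the membrane-type protease MT1-MMP that activates pro-MMP2 together with TIMP2, went from 159 to 749.6, 4.73-fold higher. A second probe set of Mmp14 went from 78.7 to 403, 5.12-fold, and the remaining one from 49.1 to 84.4, a bound of 0.61 in log2. Mmp2, the gelatinase that MT1-MMP activates, went from 213 to 558, 2.62-fold higher, and its other probe set from 165 to 608, 3.68-fold. All 3 parts of this known activation system, Mmp14, Timp2 and Mmp2, thus rose. The other gelatinase, Mmp9, had 92.9 and 74.8, a log2 ratio of -0.31.

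Mmp23, a membrane-anchored protease without a hemopexin domain, was just short of 2-fold, with 133 and 249 (log2 ratio 0.91). Its second probe set had 13.1 and 106, a bound of 0.94. Of the other membrane-anchored MMPs, Mmp17 had 52.4 and 64.7 and Mmp24 had 72.7 and 53.2, bounds of 0.22 and -0.23, and Mmp16 was not measured. Mmp11, stromelysin-3, had 27.4 and 72.1, a bound of 0.38. Under a floor at the 40th percentile this bound was 1.002, past 2-fold. Mmp12, the elastase of macrophages, had 2.6 on the control and 68.8 on the cystic array. Only the cystic signal was above its floor, which leaves a bound of at least 1.24-fold, and Mmp12 is not counted among the genes that rose. Mmp7, matrilysin, had 114 and 104, a log2 ratio of -0.13. None of the 4 collagenase genes (Mmp1a, Mmp1b, Mmp8, Mmp13) was measured. The median over the 9 measured MMPs was 0.31, a value that rests on 4 bounds and was 0.91 over the 5 above both floors.

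Of the 9 measured ADAMTS genes, 4 rose (44.4%, against 7.06% of all measured genes) and none fell. Their median log2 ratio was 0.64. Adamts1, which cuts the proteoglycans aggrecan and versican, went from 538.5 to 1753, 3.25-fold higher, and was read by 1 probe set. Adamts4, another aggrecanase, had 21.6 and 112.9, at least 2.04-fold higher, and 3.8 and 101 at its second probe set, a bound of 0.86. The rise of Adamts4 was lost under all 3 other scalings, with the median over probe sets and with the floor at the 60th percentile. Adamts5, also an aggrecanase, had 245 and 382, and its 3 measured probe sets agreed within 0.48 to 0.64 in log2. Adamts1 and Adamts5 are direct neighbours on chromosome 16, and Adamts1 alone of this pair was past 2-fold.

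Adamts9, a versicanase, had 285 and 392 at its brightest probe set, a log2 ratio of 0.46, and its others were at -0.21 (137 and 118) and close to 0 (163 and 162). Adamts15 had 199 and 127, and its log2 ratio of -0.65 was the lowest of all measured members. Its neighbour on chromosome 9, Adamts8, was not measured. The versicanase and aggrecanase branch thus held both a rise of Adamts1 and the lowest ratio among the members.

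Adamts16, linked to blood pressure in rats, had 60.7 and 351 at its brightest probe set, 5.78-fold higher. A second probe set of Adamts16 had 94.9 and 100, 1.05-fold, so the 2 differ by 2.46 in log2. The control signal of the first is just above the floor, and which of the probe sets reads the main transcript was not examined. Adamts12, a secreted protease that cuts cartilage oligomeric matrix protein, had 53.3 and 150.5, at least 2.72-fold higher, and 0.77 in log2 under a floor at the 60th percentile. Adamts7, which is close to it in sequence and cuts the same protein, had 48 and 85.1, a bound of 0.62. Adamts10, a protease tied to fibrillin microfibrils, had 139.6 and 213, a log2 ratio of 0.61. The only member among the procollagen N-proteinases, Adamts3, was not measured.

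Of the 28 Adam genes 11 were measured, 1 rose and none fell, with a median log2 ratio of 0.32. The share that rose, 9.09%, is near the 7.06% of all measured genes. Adam19, a protease known for the shedding of neuregulin, had 73.1 and 283, 3.87-fold higher, and 22.1 and 78.9 at its second probe set, a bound of 0.51. Adam12, close to it in sequence, had 134 and 218 (0.70), and 43.2 and 104.5 at its second (a bound of 0.92). The sheddases for many receptors and growth factors, Adam10 and Adam17, were under 2-fold at every measured probe set. Adam17, which releases TNF and several EGF receptor ligands, had 281 and 401 at its brightest probe set, and its 3 probe sets lay between 1.43-fold and 1.49-fold higher. Adam10 had 991 and 1350, and its 3 measured probe sets lay between 1.36-fold and 1.42-fold higher. The 6 measured probe sets of these sheddases were thus higher by a similar amount, under the 2-fold limit, and the fourth probe set of Adam10 (6.5 and 5.6) was not measured.

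The remaining somatic proteases were closer to 0. Adam15 had log2 ratios between 0.05 and 0.44 over 4 probe sets, Adam9 had 967 and 1123 (0.22), and Adam33 had 83.5 and 82.9 (-0.01). Adam8, a protease of leukocytes, had 32.5 and 44.6 and Adam28 had 27.1 and 35.4 at its brightest probe set, and neither was measured. Adam22 and Adam11, which lack a working zinc site and serve adhesion in the nervous system, had 0.50 and a bound of 0.27. Of 16 genes known mainly from testis and epididymis, 14 were under both floors, with signals of at most 30.9 on the control and 42.4 on the cystic array. The other 2, Adam4 (140 and 127) and Adam1a (102 and 93), had log2 ratios of -0.14 and -0.13.

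**Figure D3:**
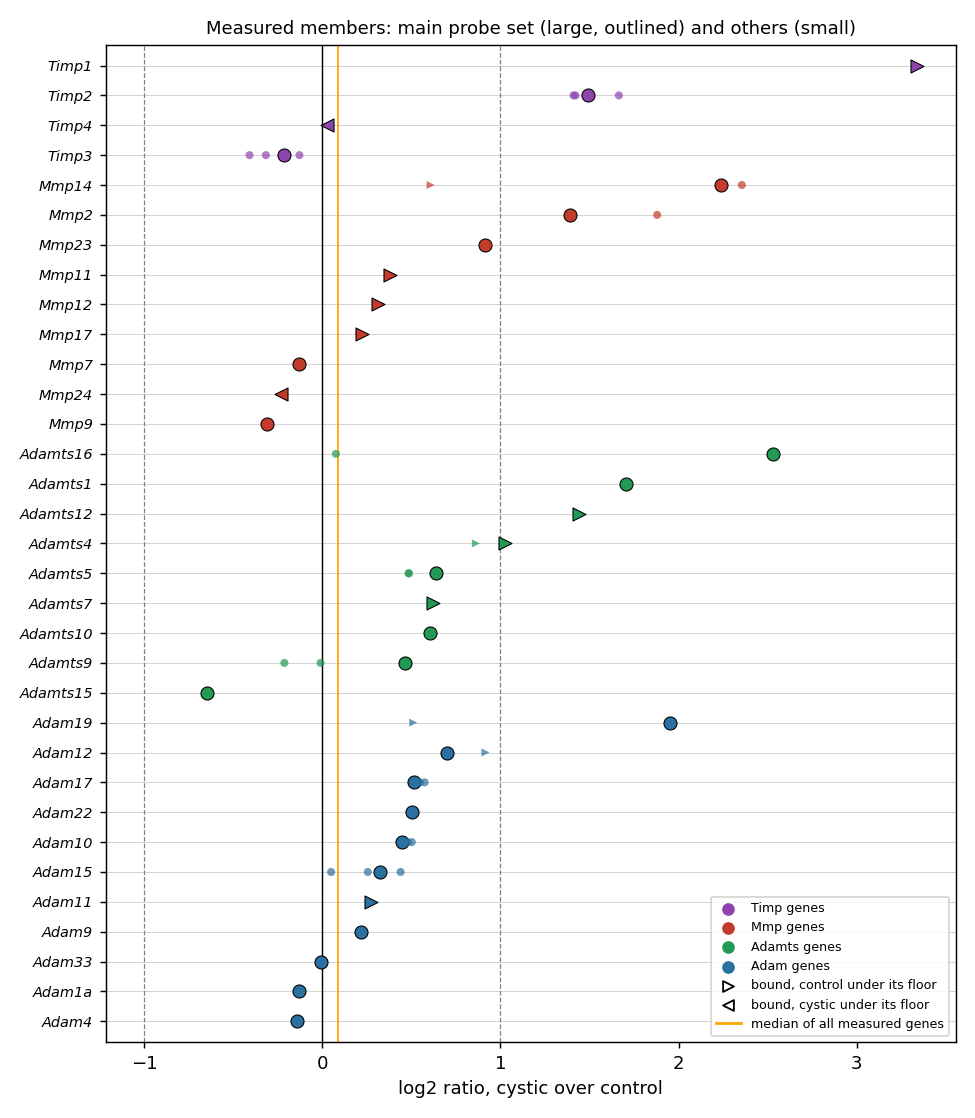
log2 ratio (cystic over control, x axis) of the 33 measured members, grouped by family, with the brightest probe set as a large outlined point and other measured probe sets as small ones; triangles are bounds, dashed lines mark 2-fold and the orange line the median of all measured genes (0.09). Timp1 (3.34), Adamts16 (2.53) and Mmp14 (2.24) are past 4-fold, and no point is left of -1.

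Probe sets of one gene give the only repeat measurement, which comes from the same RNA. Of 14 members with at least 2 measured probe sets, 13 had the same sign in all of them, and Adamts9 did not. A bound with only the cystic signal above its floor is positive by construction, so its sign is no repeat measurement. Only 10 members had at least 2 probe sets above both floors, and Adamts9 was the only one of these with both signs. Of the 9 genes that rose, 6 had a second measured probe set, and in 3 (Mmp14, Mmp2 and Timp2) another probe set was also past 2-fold. The second probe set of Adamts16 was above both floors and not past 2-fold. Those of Adam19 and Adamts4 gave lower bounds under 2-fold (0.51 and 0.86 in log2), from which no call can be read. Timp1, Adamts1 and Adamts12 had 1 measured probe set. The pooled SD of log2 ratios between probe sets was 0.41 over 10 members, and 0.29 over 4694 genes of the whole array.

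Markers of several cell types differed between the arrays as well. Over all measured genes, 7.06% rose and 3.78% fell. All 10 markers of fibroblasts and myofibroblasts rose, and their summed signals were 6255 on the control and 26932 on the cystic array. Col1a1, Col1a2, Col3a1 and Dcn are also in the list of matrix substrates below, so these lists are not separate observations. Of 10 macrophage markers 8 rose, with sums of 1819 and 8236. The value used for Csf1r was 0.98 in log2, while another of its probe sets, at 1.14, was past 2-fold. Fcgr1 went the other way. It rose as a bound (26.6 and 116.6), while its second probe set, above both floors (69.2 and 91.7), had a log2 ratio of 0.41. Itgam (17.5 and 78) had only a lower bound of 0.49, so whether it was past 2-fold could not be read. Neutrophil markers were measured in 2 of 8 genes and lymphocyte markers in 2 of 7. The sums over all 8 neutrophil genes were 233 and 275, and those over all 7 lymphocyte genes 239 and 199. Both sums include the genes under both floors. None of the measured neutrophil and lymphocyte markers was called past 2-fold, and 3 of them had only bounds. Endothelial markers had 8 of 8 measured and none past 2-fold (2761 and 3418), and podocyte markers had 4 measured, with 1 that fell (1443 and 1011). Proximal tubule markers fell in 6 of 10, with sums of 45066 and 23696, and distal nephron markers fell in 2 of 8 (25227 and 18149). No gene of these lists had a signal of 0. In whole kidney, a change in the share of a cell type and a change in RNA per cell cannot be told apart, and the part of fibroblasts and macrophages in the rise of the 9 members was not tested.

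The chromosomal position of the MMP genes went with whether they were measured. In the RefSeq table of the GRCm38.p6 assembly, 10 Mmp genes follow each other on chromosome 9 without another protein-coding gene between them, in the order Mmp13, Mmp12, Mmp1b, Mmp3, Mmp1a, Mmp10, Mmp8, Mmp27, Mmp20 and Mmp7. All of them but Mmp27 are members here. Of these 9 members, 7 were under both floors, with signals from 1.3 to 51.2 on the control and from 2.4 to 46.5 on the cystic array, and the 2 measured were Mmp7 and Mmp12. Of the 9 Mmp members on other chromosomes 7 were measured, Mmp2 and Mmp14 among them. Over the whole array, 12015 of 18193 named genes were measured.

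The promoter letters of the same run of genes were compared with those of the other members. RefSeq promoters of that assembly, from 250 bases before to 50 bases after a gene's start, were at hand for 37 of the 65 members and were searched on both strands for 3 motifs, with overlaps allowed. The AP-1 motif TGACTCA, read as TGAGTCA on the other strand, is bound by Fos and Jun proteins. It was found in 7 of the 9 members of the chromosome 9 run, in 2 of the 28 other members (Adam19 and Adam1b), and in 5.95% of all 27025 genes with a promoter. The letters TATAAA were present in all 9 of the run, in 3 of the 28 others and in 15.7% of all genes. The letters GGGCGG, a GC box, were found in none of the 9, in 17 of the 28 others and in 38.2% of all genes. Promoters of the run held from 37.7% (Mmp10) to 52% (Mmp7) G and C, those of the others from 36% (Adam21) to 80% (Mmp24). The median of all promoters was 52.7%. The part of base content in these counts was not tested. The Mmp1a and Mmp1b windows below are nearly alike, so genes of the run are not separate cases. The 7 windows of the run are shown because they hold the shared letters, with 12 bases to either side, 5′ to 3′ on the strand of the gene and the AP-1 motif in capitals.
Mmp13 (chr9:7272467-7272497, plus strand): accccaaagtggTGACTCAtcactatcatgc
Mmp12 (chr9:7347318-7347348, plus strand): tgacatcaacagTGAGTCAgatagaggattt
Mmp1b (chr9:7388101-7388131, minus strand): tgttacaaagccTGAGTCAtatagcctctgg
Mmp3 (chr9:7445764-7445794, plus strand): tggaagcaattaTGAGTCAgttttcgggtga
Mmp1a (chr9:7464056-7464086, plus strand): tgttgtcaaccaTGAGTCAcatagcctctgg
Mmp10 (chr9:7502267-7502297, plus strand): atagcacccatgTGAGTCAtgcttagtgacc
Mmp7 (chr9:7692015-7692045, plus strand): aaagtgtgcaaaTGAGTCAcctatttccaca
The motif starts between 93 bases (Mmp1b) and 35 bases (Mmp13) before the gene's start. In Mmp12 and Mmp7 it lies in 1 of the 2 listed promoters. Of these 7 genes 5 were under both floors, Mmp12 has a lower bound of 1.24-fold that leaves its size unknown, and Mmp7 (log2 ratio -0.13) alone was above both floors.

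Among the 9 genes that rose, 6 had a promoter at hand, and 1 of the 6, Adam19, held the AP-1 letters, in 1 of its 3 promoters. GGGCGG was present in 5 of the 6 (Adam19, Adamts1, Mmp14, Timp1 and Timp2) and TATAAA in 1 (Adamts1). The 300 bases of Timp1, Mmp14 and Adamts1 are printed, being the largest rise of the Timp, Mmp and Adamts families among genes with 1 promoter at hand, with any match to the 3 motifs in capitals.
Timp1 (chrX:20869916-20870215, plus strand): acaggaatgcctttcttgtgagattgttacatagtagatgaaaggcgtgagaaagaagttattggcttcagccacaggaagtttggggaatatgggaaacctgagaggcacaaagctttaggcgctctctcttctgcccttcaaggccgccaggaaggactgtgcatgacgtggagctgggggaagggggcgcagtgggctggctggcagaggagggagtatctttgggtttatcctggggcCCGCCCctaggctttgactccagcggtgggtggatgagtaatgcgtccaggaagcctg
Mmp14 (chr14:54431348-54431647, plus strand): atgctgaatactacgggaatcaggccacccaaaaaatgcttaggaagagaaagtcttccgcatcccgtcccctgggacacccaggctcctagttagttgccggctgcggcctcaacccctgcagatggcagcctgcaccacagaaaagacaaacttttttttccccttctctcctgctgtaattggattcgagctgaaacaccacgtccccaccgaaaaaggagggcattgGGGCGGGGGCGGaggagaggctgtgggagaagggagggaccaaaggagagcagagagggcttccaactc
Adamts1 (chr16:85803064-85803363, minus strand): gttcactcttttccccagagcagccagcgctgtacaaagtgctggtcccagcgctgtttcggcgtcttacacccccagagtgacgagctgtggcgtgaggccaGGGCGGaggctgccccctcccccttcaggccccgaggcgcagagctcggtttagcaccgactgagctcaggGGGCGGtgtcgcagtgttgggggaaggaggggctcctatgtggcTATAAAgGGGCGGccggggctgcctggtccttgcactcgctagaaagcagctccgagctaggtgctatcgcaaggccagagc
The Timp1 promoter holds the GC box on the opposite strand and no match to the other motifs. A match describes the letters of a window and is not a binding site, and other forms of these sites were not searched.

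The transcription factors known to act on metalloprotease promoters were described beside them. Of 12 measured, 7 rose (58.3%, against 7.06% of all measured genes) and 1 fell (8.33%, against 3.78%). Their median log2 ratio was 1.18. The AP-1 subunit Fos went from 79.1 to 512 (6.48-fold), Fosl2 from 109 to 631 (5.77-fold at its brightest probe set and 0.62 in log2 at its second), and Egr1 from 298.5 to 1578 (5.29-fold). Etv5, an Ets factor, fell from 165 to 69.9, a log2 ratio of -1.24. The AP-1 subunits Junb (85.2 to 358, 4.20-fold) and Jun (597 to 1235, 2.07-fold, 0.62 in log2 at its second) rose too, while Jund had a log2 ratio of 0.49 and Fosb and Fosl1 were not measured.

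Genes that act on the proteases from outside gave a mixed picture. Of 9 measured pericellular activators, 1 rose and 1 fell (11.1% each), with a median of -0.15. Over all measured genes 7.06% rose and 3.78% fell, so 1 gene each way is near those shares. Plaur, the urokinase receptor, went from 95.7 to 222 (2.32-fold higher), and Pcsk6, a proprotein convertase, from 298 to 120.1, a log2 ratio of -1.31. Furin, the convertase that activates MT1-MMP and many ADAMs, had 532 and 534. In the list of other inhibitors, cofactors and clearance receptors, 6 of 10 measured genes rose (60%), none fell and the median was 1.27. Thrombospondin-1 (Thbs1) was 5.76-fold higher (259 to 1494), Cd44 at least 5.21-fold (34.5 and 288.5), and Thbs2 at least 3.95-fold (55 and 219). Rhbdf2, the iRhom that carries ADAM17 to the cell surface in immune cells, had 15.9 and 159.9, at least 2.89-fold higher, while Rhbdf1 had 774 and 1039, a log2 ratio of 0.43. The membrane-anchored MMP inhibitor Reck had 171 and 241 (0.50).

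Proteins shed by ADAM10 or ADAM17 rose in 7 of 17 measured genes and fell in 1, with a median of 0.82. These are 41.2% and 5.88%, against 7.06% and 3.78% of all measured genes. The injury marker Havcr1 was at least 14.4-fold higher (48.6 and 799), and the adhesion molecules Icam1 and Vcam1 were 6.49-fold (103 to 666) and 5.28-fold higher (114 to 604). Kl, the anti-ageing protein klotho of the distal tubule, fell from 2767 to 1220, a log2 ratio of -1.18. Matrix substrates rose in 10 of 14 measured genes (71.4%), none fell and the median was 1.46. At the brightest probe set of each gene, the largest rises were those of Col5a2 (12.96-fold, 111 to 1438), Tnc (at least 9.56-fold, 42 and 529) and Col1a1 (7.20-fold, 548 to 3946). Second probe sets gave 7.25-fold for Col5a2 and 2.97-fold for Col1a1, so this order depends on the probe set. The second ones of Col1a2 (5.55-fold), Col3a1 (4.99-fold), Fn1 (4.57-fold) and Bgn (4.05-fold) were above that of Col1a1. So was that of Eln (2.25 in log2, against 0.81 at its brightest).

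Related metalloproteases outside the rule rose in 2 of 13 measured genes and fell in 2, with a median of 0.27. Each is 15.4%, against 7.06% and 3.78% of all measured genes. Bmp1, the procollagen C-proteinase, was 4.18-fold higher (82.8 to 346) at its brightest probe set and had 12.8 and 81.2 at its second, a bound of 0.55 in log2. The ADAMTS-like protein Adamtsl5, which has no protease domain, was at least 2.12-fold higher (35 and 117). Meprin beta (Mep1b), a brush border protease of the proximal tubule, fell from 1701 to 449, a log2 ratio of -1.92, and the angiotensin-converting enzyme Ace from 873 to 357 (-1.29). Other brush border peptidases had smaller differences at their brightest probe sets, with log2 ratios of -0.95 for Mep1a (-1.04 at its second), -0.73 for Enpep, -0.40 for Anpep and -0.09 for Mme (0.19 at its second). These values stand beside the lower markers of the proximal tubule given above, whose part in them was not tested.

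**Figure D4:**
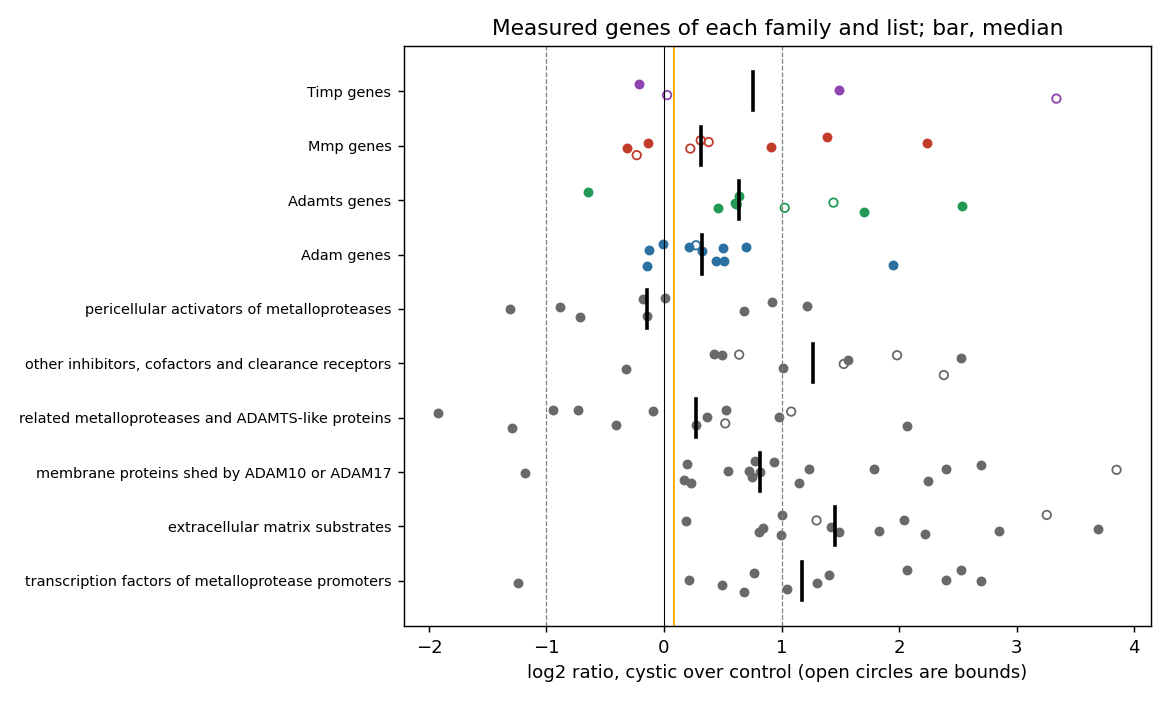
log2 ratio (cystic over control, x axis) of every measured gene of the 4 member families and of the 6 lists of related genes, 1 point per gene, with open circles for bounds, black bars for medians, dashed lines at 2-fold and the orange line at the median of all measured genes (0.09). The bar of the pericellular activators lies at -0.15 and that of the matrix substrates at 1.46, with the member families between them.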

How the data were processed

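Kidney RNA of the control and the cystic group was measured on 1 array each. The authors deposited 1 intensity per probe set and array, a linear signal made with MAS5 per the submitters' processing notes, with the MAS5 version, scaling target and detection calls not given in the sources used here. Of 45101 probe sets, 64 controls were left out. The authors' scaling was kept, since the 2% trimmed means (178 and 181) differed by 1.83%. Gene names came from GEO's platform table, brought up to date through RefSeq gene identifiers (GRCm38.p6), and 34945 named 1 gene, 932 several and 9160 none. Floors, bounds and log2 ratios were computed in Python 3.11.15 with pandas 2.3.3 and numpy 2.4.6. Of a gene's measured probe sets, the brightest by mean log2 signal was used. Calls were a fixed 2-fold limit, and the steps were tested on simulated data. The changes were planted only in genes well above the floor, so the recovery of changes near the floor was not tested. Named genes were all members past 2-fold, the Timp genes, the extremes of each role group, and up to 3 genes past 2-fold per direction of each list. Others, such as Adam8, Furin, Reck and Rhbdf1, were added with their values known. The members and lists were chosen with earlier results of these data known, and the motifs after the values were seen. No protein sequences were used here. Alternatives changed the scaling, the floor and the probe set of a gene.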

Additional observations from a re-analysis of the deposited data

How the results depend on the processing

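Among 8 alternatives, the count of members at least 2-fold higher lay between 7 and 12, against 9, and no member was at least 2-fold lower under any of them. The main count was 9 of 33 measured members, beside 7.06% of all measured genes. The 7 were of 25 measured members with the floor at the 60th percentile, beside 6.06% of all genes. The 12 were of 65 with no floor, beside 6.01%. The share of all genes lay between 5.07% and 7.27% over the alternatives. Adamts4 was the only one of the 9 lost with median centring, quantile normalization, loess or the median over probe sets, and Adamts12 and Adamts4 were lost with the floor at the 60th percentile. Mmp11 was gained with the floor at the 40th percentile, and Mmp11, Mmp12 and Mmp19 with no floor and a pseudocount of 16, a setting that counts all 65 genes. The median log2 ratio of the members, 0.46, was 0.30 with median centring, 0.36 with quantile normalization and 0.24 with no floor. For the Mmp genes, 0.31 became 0.15, 0.15 and 0.084 under the same settings, and 0.91 with the floor at the 60th percentile, where fewer genes were measured. For the Adam genes, 0.32 became 0.16 with median centring, 0.19 with no floor, 0.45 with the floor at the 60th percentile and 0.44 without probe sets whose names mark them as shared. For the Adamts genes, 0.64 became 0.48 with median centring, 0.53 with quantile normalization and 0.44 with no floor. Of 256 values of single members under the alternatives, 238 moved by less than 0.29, the SD between probe sets over the whole array (0.41 over members). Many of them could not move further. Median centring shifts every log2 ratio by -0.16, and another floor leaves genes above the old and new floors as they were. The count is therefore no measure of how stable the values are. Timp4 was the only member whose sign changed under a scaling, to between -0.14 and -0.06. Its log2 ratio was also negative with the floor at the 40th percentile (-0.29) and with no floor (-0.22). Other alternatives changed 2 more signs. Mmp9 went from -0.31 to 0.12 with the floor at the 60th percentile, and Adamts9 from 0.46 to -0.01 with the median over probe sets. Signals near the floor limit what Timp1, Adamts4, Adamts12 and Mmp12 can show beyond a bound. No paired analysis was possible because each group has 1 array.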
